A study of Mus musculus with 6 samples.

Results

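Both biological replicates of the 3 h experiment on PA6 cells were compared with each other, array by array within each treatment. The aim was to describe how far the arrays of replicate 2 differed from those of replicate 1. PA6 is a stromal preadipocyte line derived from the calvaria of newborn mice, and it is the feeder layer on which ES cells are differentiated in the study. Confluent monolayers of pure PA6 cells stood for 3 h in serum-free medium, either untreated (-GFs), or exposed to FGF2 at 20 ng/ml, or to BMP4 at a dose that the labels give as 10 ng/ml. Total RNA was hybridised to MouseWG-6 v2.0 BeadChip arrays, 1 array per well. The arrays carrying replicate number 2 were set against those carrying number 1 in 3 pairs (-GFs, FGF2 and BMP4), and the members of the comparison are the autosomal genes with a detection p under 0.05 on all 3 arrays of either number. There were 8770 such genes, of 10553 that passed the same detection rule and 28733 measured on the array. A further 290 genes that passed lie on the sex chromosomes and 1493 could not be placed on 1 chromosome, and these are not members.

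According to the labels, each biological replicate comprised 1 well of each treatment. Whether the 3 wells of a number came from 1 dish or passage is not stated. The SE and p-values below set a difference against its variation among the 3 treatment pairs, with a spread shared in large part over genes. With 2 biological replicates of 1 cell line compared with each other, they carry no spread between cultures. The culture itself, the RNA preparation and the hybridisation of a replicate cannot be told apart. With 3 pairs an exact two-sided test of 1 gene cannot go below p = 0.25, so that every test given here is the linear model fitted across all genes (limma) with the treatment as a block. In bulk RNA, fewer cells of a type and less RNA per cell cannot be told apart either.

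Preadipocytes are fibroblast-like cells that, once confluent and exposed to insulin or other adipogenic signals, store lipid droplets and switch on secreted adipokines, lipases and lipid droplet proteins under the control of PPARγ and C/EBPα. Confluence also slows their division. Stromal cells of the marrow respond in addition to interferons, which raise antiviral enzymes and the immunoproteasome that prepares peptides for MHC class I.

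Markers of the stromal line were detected in both biological replicates. Of 18 markers of the stromal preadipocyte line, 16 were members, and their median difference was 0.01 on the log2 scale. Pdgfra, a receptor of mesenchymal progenitors, differed by 0.01 and Vim, the intermediate filament of fibroblasts, by -0.10, and neither passed the test. S100a4 (-0.76), Ly6a (-0.52), Thy1 (-0.51) and Cxcl12 (-0.47) fell in replicate 2, whereas Col1a2 (0.46) and Cd44 (0.27) rose. The summed intensity of the list was between 112538 and 163827 on the 6 arrays. Kitl and Nt5e, which are also on the list, were not detected on any array. Of 13 markers of macrophages and blood cells on the array, 2 to 5 were detected on an array, and Ptprc, Cd68 and Adgre1 were on none. Those detected included Cd14 (a monocyte receptor also made by stromal cells) and Lyz2 (lysozyme) on all 6 arrays, Csf1r on 3 arrays of replicate 1 and 2 of replicate 2, and Aif1 on 2 of each. None of the 3 that were members passed the test, with Cd14 at -0.04, Lyz2 at 0.24 and Csf1r at -0.18. Of 12 endothelial markers 1 or 2 were detected per array, with Cdh5, Pecam1 and Tie1 on none, while Tek was detected on all 6 arrays and Kdr on 1 array of replicate 1 and 3 of replicate 2. Markers of ES cells (1 to 3 of 12, Nanog on none), of neurons (1 to 3 of 9, Tubb3 on none) and of epithelial cells (1 of 10 on each array, Epcam on none) were as rare, although Pou5f1, Syn1 and Cdh1, 1 from each of these lists, were detected on all 6 arrays. The part of these markers in the results below was not tested.

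In each treatment, fewer probes were detected in replicate 2. The array had 16459 detected probes in replicate 1 and 15509 in replicate 2 for -GFs, 16124 and 15844 for FGF2, and 16330 and 15726 for BMP4. The median intensities lay between 153.4 and 168.1. The part of this difference in the results below was not tested.

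Of the 8770 genes, 7943 were detected on all 6 arrays. Another 520 were members only through replicate 1 and 307 only through replicate 2, and such genes had to differ to enter, so that they are counted apart. The 827 genes detected on all 3 arrays of 1 number but not of the other had a median level of 7.74 (log2 intensity), the 840 autosomal genes just outside the rule, with at most 2 of 3 arrays of either number, had 7.58, and genes detected on all 6 arrays had 9.97.

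Among the 7943 genes, 24 were called higher in replicate 2 (0.302% of them) and 62 lower (0.781%), where a call needs a change over 1 in either direction on the log2 scale and an adjusted p under 0.1. Over all 10553 genes tested, 42 (0.398%) were called higher and 82 (0.777%) lower. At an adjusted p under 0.1 alone, 1262 of the 7943 (15.9%) were higher and 1310 (16.5%) lower, beside 14.5% and 18% of all genes tested. All 86 called genes had the same sign in the 3 pairs, a condition met by 4438 of the 7943 genes (55.9%), and in 78 of the 86 the 3 values of 1 number did not overlap those of the other. Over the 7943 genes, 10.8% were without overlap and higher and 11.7% without overlap and lower. The median absolute difference was 0.19. Without the FGF2 pair, 123 genes were called lower instead of 62. Genes that entered through 1 number added 9 called higher and 1 called lower, which gave 33 and 63 over all members.

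**Figure D1:**
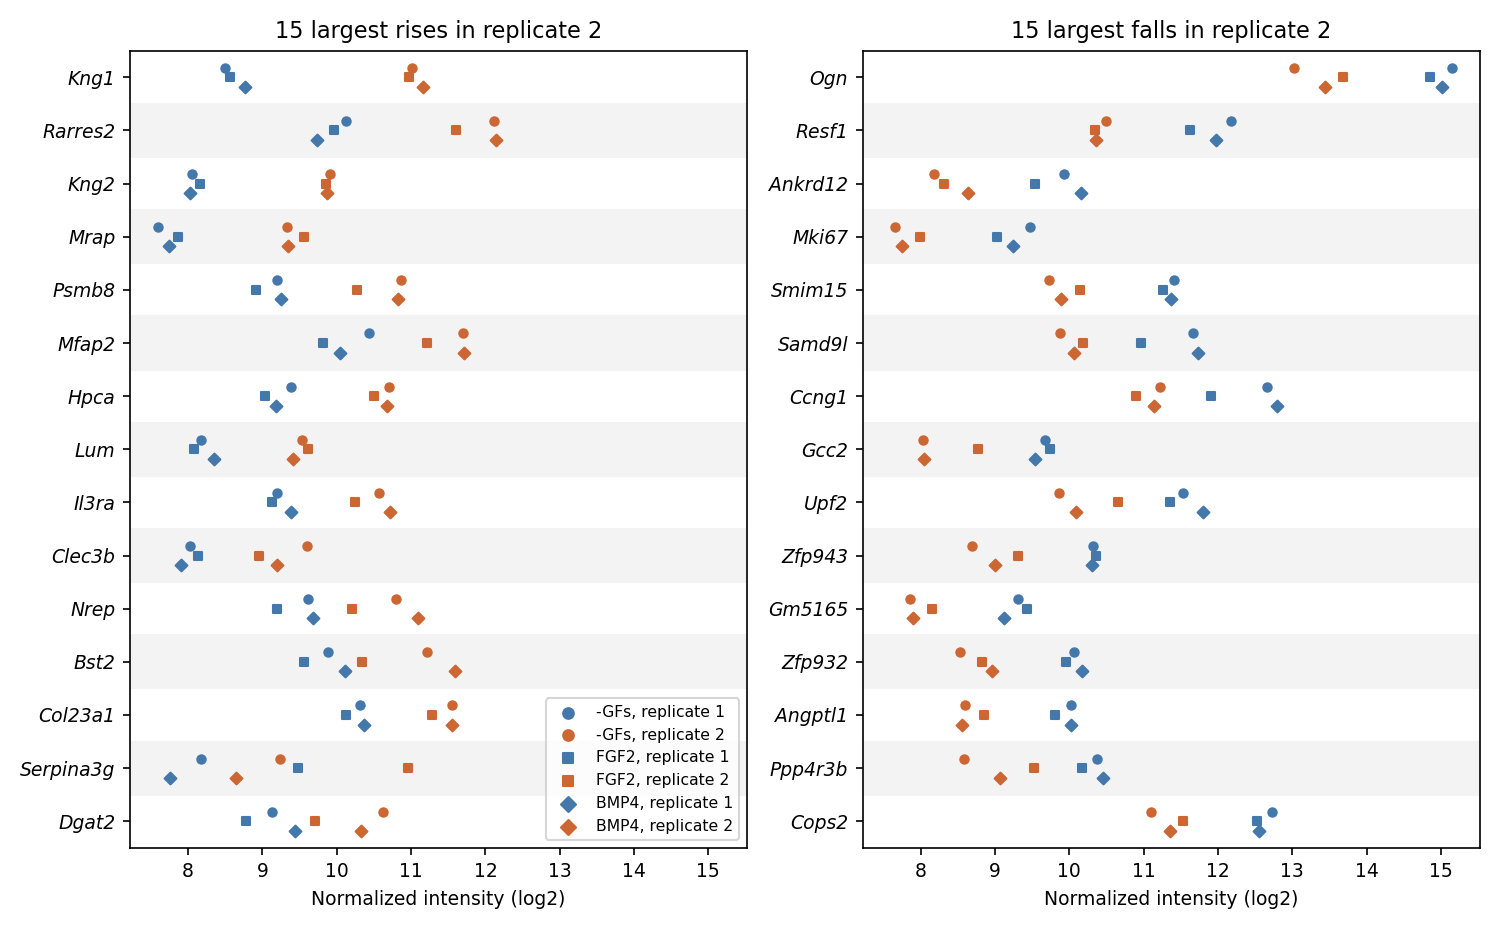
Normalized intensity (log2, x axis) of the 15 most raised and the 15 most lowered genes in replicate 2, among those detected on all 6 arrays. Each symbol is 1 array (circle -GFs, square FGF2, diamond BMP4, blue replicate 1, orange replicate 2), and in all genes shown but Serpina3g the blue and orange symbols form separate groups.

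Adipocyte genes rose more often than they fell. Of 44 adipocyte genes listed, 42 were on the array and 18 were detected on all 6 arrays. Of these 18, 10 rose, none fell and 2 were called, Dgat2 and G0s2. Their median difference was 0.28, beside 0.04 over the 7943 genes, of which 15.9% rose and 16.5% fell. In this and the following lists, the counts and medians are those of the genes detected on all 6 arrays. A further 8 adipocyte genes were members through 1 replicate number, among them Adipoq, Lpl, Cfd and Cidec through replicate 2, and their values are given as a description. The list was written after differences between the replicate numbers had been seen, so that its count is no independent evidence.

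Adipoq encodes adiponectin, the hormone secreted by mature adipocytes. Its log2 intensity in replicate 1 was 7.24 in -GFs medium, 7.30 with FGF2 and 7.29 with BMP4, none of them detected. In replicate 2 it was 11.33, 10.77 and 11.16, all of them detected. The groups lay far apart in every treatment, and the level in replicate 2 was at least 11.5-fold higher, the highest bound of the genes given here. The 250 bases before its start site (RefSeq, GRCm38.p6) are shown because this gene has the highest bound, with CCAAT boxes on either strand in capitals:
Adipoq, chr16:23146286-23146535, + strand: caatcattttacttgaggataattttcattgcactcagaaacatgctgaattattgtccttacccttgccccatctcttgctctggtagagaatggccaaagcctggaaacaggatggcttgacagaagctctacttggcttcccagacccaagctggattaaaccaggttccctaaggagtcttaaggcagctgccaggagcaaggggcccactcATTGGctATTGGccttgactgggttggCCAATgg
CCAAT (read on both strands) stands in 37.4% of all promoters of the table, taken from 250 bases before to 50 after the start, and in 23.1% of those of the adipocyte genes.

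Lpl, the lipoprotein lipase that frees fatty acids for uptake, was at 7.79, 7.36 and 7.78 in replicate 1 (-GFs, FGF2, BMP4), detected on 2 of the 3 arrays, and at 9.40, 9.28 and 9.71 in replicate 2. Cfd, the complement factor secreted by adipocytes under the name adipsin, was at 7.40, 7.61 and 7.27 in replicate 1, detected on 1 array, and at 9.45, 8.80 and 9.25 in replicate 2. All 3 values of replicate 2 were above all 3 of replicate 1 in both genes, with differences of 1.82 and 1.74. Cidec, a protein that enlarges lipid droplets, was not detected in replicate 1 and was at least 1.50-fold higher in replicate 2, where all 3 arrays detected it (8.14, 7.85 and 8.47).

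Among adipocyte genes detected on all 6 arrays, Dgat2, which adds the last fatty acid to triglycerides, was at 9.12, 8.78 and 9.44 in replicate 1 and at 10.62, 9.71 and 10.33 in replicate 2. The difference was 1.10 ± 0.13 (SE, adjusted p = 2e-05). G0s2, an inhibitor of the triglyceride lipase ATGL, was at 10.08, 9.28 and 10.12 against 11.39, 10.07 and 11.25, a difference of 1.07 ± 0.12 (SE, adjusted p = 1.54e-05). Its FGF2 array of replicate 2 lay among the arrays of replicate 1, and the FGF2 value was the lowest of each replicate number. Smaller rises were measured for Angptl4 (0.90), an inhibitor of Lpl, for Acsl1 (0.63) and Agpat2 (0.57), enzymes of fatty acid activation and triglyceride synthesis, for the lipases Pnpla2 (0.52) and Mgll (0.35), and for the droplet coat protein Plin2 (0.40).

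None of the regulators of the programme among the members passed the test. Cebpa, the gene of C/EBPα, was detected on 2 arrays of each replicate number and was not a member. Pparg, the nuclear receptor that drives adipogenesis, was at 11.16, 11.11 and 11.29 in replicate 1 and at 11.14, 11.60 and 11.67 in replicate 2, a difference of 0.28 ± 0.12 that did not pass (adjusted p = 0.108). Cebpb differed by 0.16 (adjusted p = 0.369) and Cebpd by -0.07 (adjusted p = 0.68). Other genes of mature adipocytes, Fabp4, Cd36, Cidea, Retn and Slc2a4, were not detected on any array. Plin1, the main droplet protein of mature fat cells, was detected on 0 arrays of replicate 1 and 2 of replicate 2. Stearoyl-CoA desaturases gave values of -0.13 (Scd1) and -0.23 (Scd2) and did not pass.

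**Figure D2:**
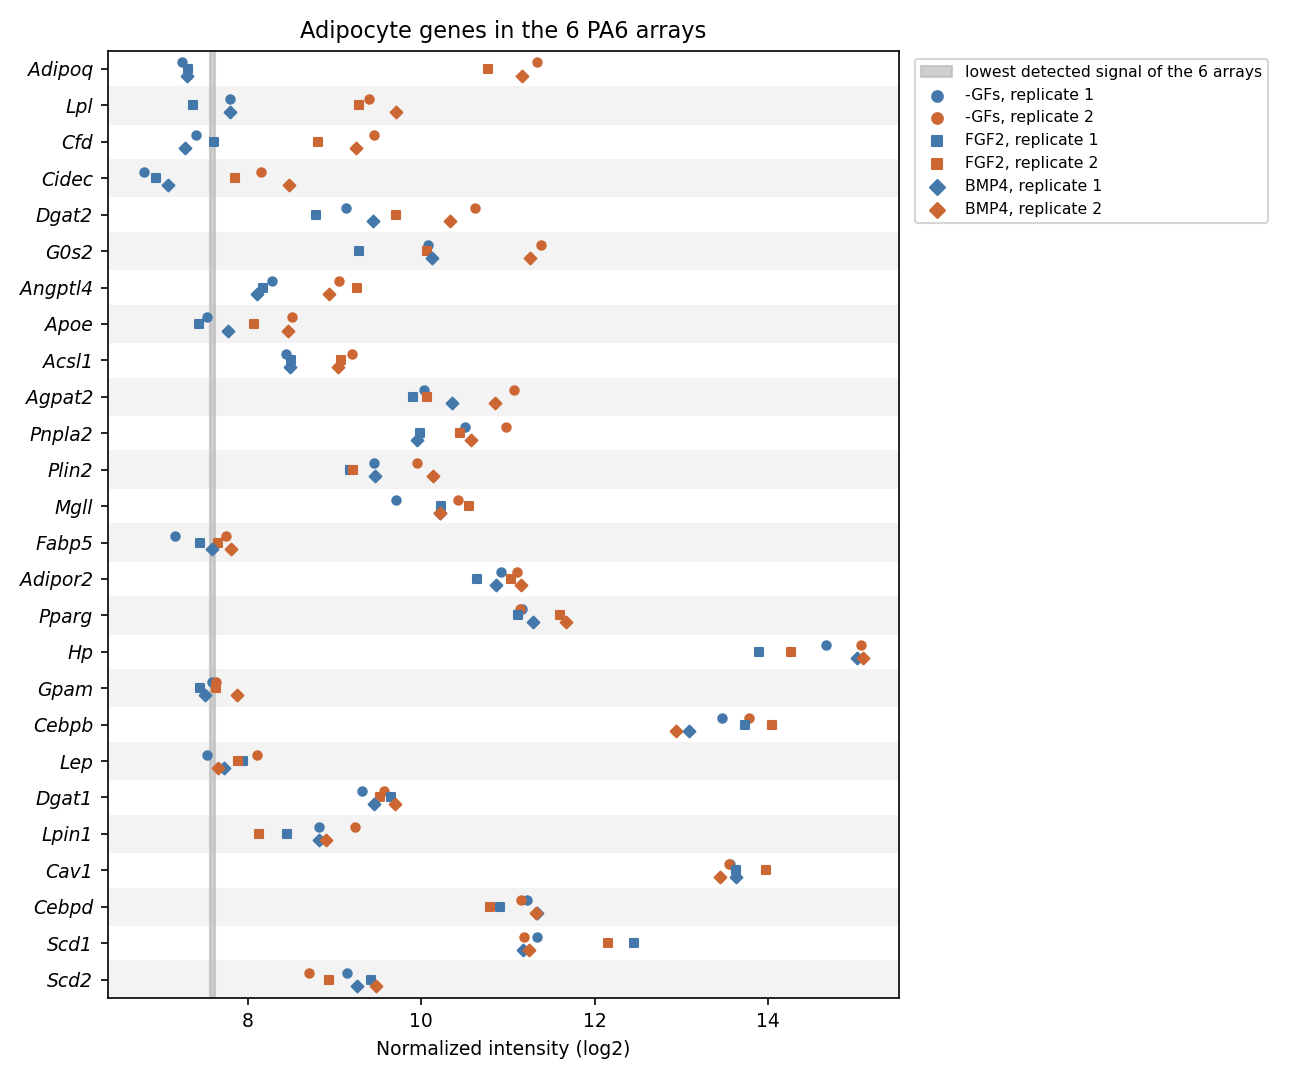
Normalized intensity (log2, x axis) of the 26 adipocyte genes among the members on each of the 6 arrays, ordered by their difference, with the symbols of the 3 treatments in blue for replicate 1 and orange for replicate 2. The grey band spans the lowest detected signal of the 6 arrays (7.56 to 7.62), below which Adipoq and Cidec lay in replicate 1.

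Outside the list, the largest rise among genes detected on all 6 arrays was that of Kng1, a kininogen, the precursor of the vasoactive peptide bradykinin. It was at 8.50, 8.57 and 8.76 in replicate 1 and at 11.01, 10.97 and 11.15 in replicate 2. The replicate numbers were apart in each treatment (difference 2.43 ± 0.11 SE, adjusted p = 5.67e-10). Kng2, its paralog, was at 8.05, 8.16 and 8.02 against 9.91, 9.85 and 9.87 (difference 1.80 ± 0.11 SE, adjusted p = 4.77e-08). The sequences of both are closely similar, so that their probes may read the same transcripts, and a further Kng1 probe differed by 0.79. By the RefSeq annotation Kng2, Kng1 and Adipoq are neighbours on chromosome 16, within 172 kb. The other members of that stretch did not rise, since Eif4a2, a translation initiation factor, fell by 0.59 (adjusted p = 0.00317) and Rfc4, a subunit of the clamp loader of DNA replication, was at -0.001 (adjusted p = 0.997). Of the 96 called genes, 9 lay in 4 such stretches with gaps of at most 200 kb, and the others were Hpca with Fndc5 (both higher), Zfp97 with Gm5165 and Snapc3 with Psip1 (all lower). These neighbours were looked for after the values had been seen, and how often uncalled members lie as close was not counted.

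Rarres2 encodes chemerin, a chemoattractant and adipokine. Its log2 intensity was 10.12, 9.96 and 9.73 in replicate 1 and 12.11, 11.61 and 12.14 in replicate 2, a difference of 2.02 ± 0.13 (SE, adjusted p = 6.4e-08). One further probe gave 1.76 and another, detected on all arrays, 0.05, so that the rise is not seen by every probe of the gene. Mrap, the accessory protein that brings the ACTH receptor to the cell surface, was at 7.60, 7.87 and 7.74 against 9.34, 9.56 and 9.34 (difference 1.68 ± 0.11 SE, adjusted p = 6.4e-08). Its groups did not overlap, and its difference was nearly the same in the 3 pairs (1.74, 1.69 and 1.60).

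Several of the other leading genes encode proteins of the extracellular matrix. Mfap2, a protein of elastic microfibrils, was at 10.43, 9.81 and 10.05 in replicate 1 and at 11.70, 11.21 and 11.72 in replicate 2 (difference 1.45 ± 0.12 SE). Lum, the keratan sulphate proteoglycan lumican, was at 8.18, 8.07 and 8.35 against 9.53, 9.62 and 9.41 (1.32 ± 0.12 SE). For both, further probes gave like values (1.26 and 1.31 for Mfap2, 1.14 for Lum, on a probe detected in replicate 2 alone). Col23a1, a transmembrane collagen, rose by 1.20 and Clec3b, the plasminogen-binding protein tetranectin, by 1.23, with 0.60 on its other probe. Of 41 collagens and matrix genes, 12 rose and 4 fell, with a median of 0.10, beside 15.9% and 16.5% of all genes detected on all 6 arrays. Col15a1 (0.93), Col3a1 (0.87) and Eln (0.86), the gene of elastin, were among those that rose, and Lox, whose enzyme cross-links collagen and elastin, fell by 0.76. Col1a1, the most familiar fibrillar collagen of stromal cells, was at 0.13 and did not pass. Some matrix genes outside the list were called lower, among them Ogn (-1.62), Col2a1 (-1.13) and the matricellular Ccn5 (-1.22). Col2a1 and Ccn5 are named here after their values were seen. The remaining genes of the 15 largest rises were Hpca (1.43), a neuronal calcium sensor, Il3ra (1.27), the receptor chain for interleukin 3, Nrep (1.21), and Serpina3g (1.15), a serine protease inhibitor whose level also varied with the treatment, between 7.75 and 9.48 in replicate 1 and between 8.65 and 10.96 in replicate 2.

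Interferon-stimulated genes rose in larger number than they fell. Of 36 of these genes, 18 rose and 5 fell, with a median of 0.26, beside 15.9% and 16.5% of the 7943 genes, and 2 were called higher and 1 lower. The list, like that of antigen presentation, was written with the replicate differences known. Bst2, the membrane protein tetherin that holds back budding viruses, was at 9.88, 9.56 and 10.11 in replicate 1 and at 11.21, 10.34 and 11.59 in replicate 2. Every array of replicate 2 was above every array of replicate 1 (difference 1.20 ± 0.13 SE, adjusted p = 1.13e-05). Oas1g, an oligoadenylate synthetase that senses double-stranded RNA, was at 9.92, 9.33 and 9.58 against 11.17, 9.98 and 10.84, a difference of 1.05 ± 0.13 (SE, adjusted p = 3.16e-05), and closely related copies of this gene could share its probe. Rises below the threshold on the fold were those of Usp18 (0.99), the protease that removes ISG15, of Oas2 (0.85), of Oasl1 (0.82), of Ifit3 (0.75) and of Isg15 (0.59). Rsad2, the antiviral enzyme viperin, was detected on no array of replicate 1 and was at least 1.43-fold higher in replicate 2.

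Samd9l, a cytoplasmic antiviral factor, was called in the opposite direction. It was at 11.66, 10.97 and 11.73 in replicate 1 and at 9.87, 10.19 and 10.07 in replicate 2 (difference -1.41 ± 0.16 SE, adjusted p = 1.09e-05). Eif2ak2 (-0.62), the kinase PKR that stops translation, and Parp14 (-0.36) fell as well.

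In antigen presentation, 6 of 12 genes rose (15.9% of the 7943 genes did) and none fell (16.5%), with a median of 0.29. Psmb8, the catalytic subunit of the immunoproteasome, was at 9.19, 8.91 and 9.25 in replicate 1 and at 10.87, 10.28 and 10.83 in replicate 2. Its groups did not overlap and the difference was 1.54 ± 0.12 (SE, adjusted p = 3.38e-07), whereas its other probe, also detected throughout, gave 0.48. Psmb9 (0.81) and Psmb10 (0.50), the other subunits special to the immunoproteasome, Tapbp (0.77) and Tap1 (0.58), which load and carry peptides, and Psme1 (0.31) rose as well.

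The promoters of the interferon genes are shown because many members moved together. Bst2 carries the core of the interferon-stimulated response element, GAAANNGAA, at 2 overlapping positions, 130 and 124 bases before the start site, in capitals within the 250 bases before the start:
Bst2, chr8:71537473-71537722, - strand: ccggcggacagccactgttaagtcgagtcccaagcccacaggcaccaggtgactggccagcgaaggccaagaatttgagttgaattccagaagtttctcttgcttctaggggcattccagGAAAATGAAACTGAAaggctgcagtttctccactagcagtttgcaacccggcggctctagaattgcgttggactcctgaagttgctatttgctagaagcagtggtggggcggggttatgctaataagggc
The 6 genes shown next have the largest rises among those whose match, with 12 bases on either side, lay wholly within the 250 bases before the start. Rsad2 is a member through replicate 2 alone. The match nearest the start is set in capitals between 12 flanking bases (GRCm38.p6, in the gene's direction):
Bst2, chr8:71537576-71537608, - strand: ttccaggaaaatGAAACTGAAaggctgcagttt
Rsad2, chr12:26456551-26456583, - strand: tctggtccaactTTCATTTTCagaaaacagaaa
Ifit3, chr19:34583415-34583447, + strand: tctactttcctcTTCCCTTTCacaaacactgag
Isg15, chr4:156200864-156200896, - strand: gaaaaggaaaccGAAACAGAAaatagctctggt
Igtp, chr11:58199510-58199542, + strand: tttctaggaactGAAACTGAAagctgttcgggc
Gbp2, chr3:142620593-142620625, + strand: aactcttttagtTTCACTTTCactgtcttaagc
The matches lay between 34 (Igtp) and 124 bases (Bst2) before the start, on the strand of the gene in Bst2, Isg15 and Igtp and on the opposite strand in Rsad2, Ifit3 and Gbp2. Read on both strands, the motif stood in 10 of 19 promoters of the interferon genes that rose (52.6%). It stood in 9 of 21 promoters of the other interferon genes among the members (42.9%). Unlike the counts of the lists, these take all members, and genes that entered through replicate 2 alone, Rsad2 among them, had to differ. The motif stood in 22.2% of 18 promoters of genes called higher and in 11.9% of 59 of genes called lower. The share was 6.73% over the genes detected on all 6 arrays and 8.56% over the 32851 promoters of the table. A match describes the letters and does not show a site in use.

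Genes of inflammation and NF-kB signalling showed the highest median of the 16 lists, 0.38, with 14 of 22 higher and 3 lower, beside 15.9% and 16.5% of the 7943 genes. Cxcl16 (0.89) and Cxcl1 (0.85), both chemokines, Relb (0.87), a subunit of NF-kB, and Lcn2 (0.86), the siderophore-binding protein lipocalin 2, rose. Lcn2 was at 10.37, 12.11 and 10.41 in replicate 1 and at 11.16, 13.31 and 10.99 in replicate 2, with the FGF2 array highest in both replicates. Ccl9, a chemokine of the macrophage inflammatory protein family, moved the other way. It was at 14.38, 14.54 and 14.30 in replicate 1 and at 13.22, 12.98 and 13.23 in replicate 2, a difference of -1.26 ± 0.12 (SE, adjusted p = 3.54e-06), and Il1rn, the interleukin 1 receptor antagonist, fell by 0.93.

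**Figure D3:**
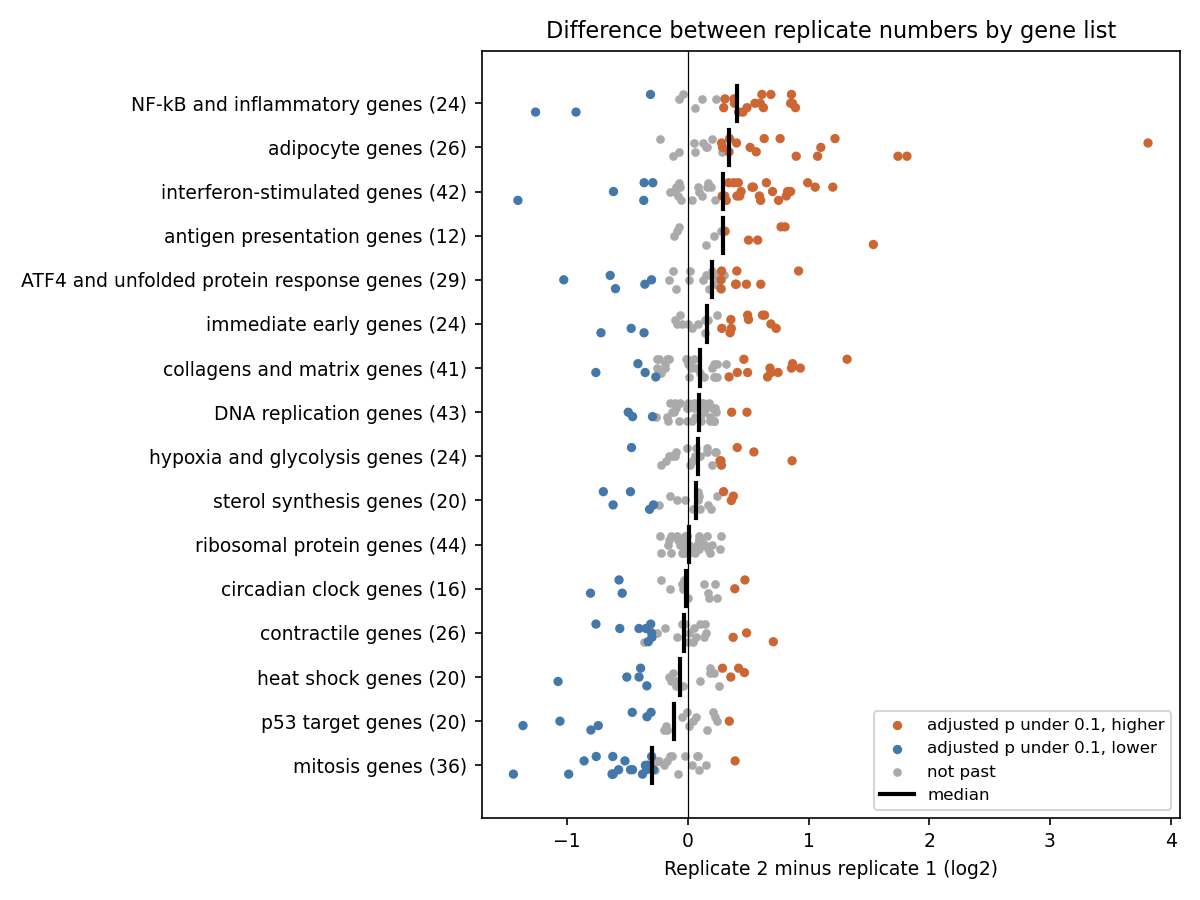
Difference of replicate 2 from replicate 1 (log2, x axis) for each member of the 16 gene lists, with the number of members in brackets and the lists ordered by their median (black bar). Orange and blue points passed an adjusted p under 0.1, upward and downward, and grey points did not. Over all members, those that entered through 1 replicate number included, medians run from 0.40 (NF-kB and inflammatory genes) to -0.30 (mitosis genes).

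Mitosis genes fell more often than they rose. Of 30 such genes, 15 fell and 1 rose, with a median of -0.30, beside 16.5% and 15.9% of the 7943 genes. Ndc80, Dlgap5, Kif11, Cdc25c and Cdca5 were members through replicate 1 alone and Cks1b through replicate 2 alone, and they are not counted. The list was written with the replicate differences known. Mki67 encodes Ki-67, the protein that coats mitotic chromosomes and marks cycling cells. It was at 9.47, 9.02 and 9.24 in replicate 1 and at 7.65, 7.99 and 7.75 in replicate 2. The groups did not overlap, with a difference of -1.45 ± 0.14 (SE, adjusted p = 2.6e-06). Nusap1 (-0.99) and Prc1 (-0.86), which bundle spindle microtubules, Anln (-0.76), the anillin of the cleavage furrow, Top2a (-0.63), the topoisomerase that untangles chromosomes, and Tpx2 (-0.62), an activator of Aurora A, fell with it. Kif23, a kinesin of the midbody, was the only one that rose (0.39). The other genes of the list did not pass, among them Plk1 (0.08), Foxm1 (0.03), Bub1b (-0.08) and Cdk1 (-0.20). Kif15, a spindle kinesin outside the list, was detected on all 3 arrays of replicate 1 and on none of replicate 2, where it was at least 1.60-fold lower. It was a member through replicate 1 alone and had to differ to enter.

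Few DNA replication genes passed the test. Of 39 genes, 2 rose and 3 fell, with a median of 0.06, and their largest changes were -0.49 (Dbf4, a regulator of replication origins) and 0.49 (Ung, the uracil DNA glycosylase). The p53 target genes, some of which stop the cycle, gave 6 lower and 1 higher of 18, with a median of -0.11. Beside both lists, 16.5% of the 7943 genes fell and 15.9% rose. Ccng1, cyclin G1, was at 12.66, 11.90 and 12.80 in replicate 1 and at 11.22, 10.90 and 11.14 in replicate 2 (difference -1.37 ± 0.13 SE, adjusted p = 2.77e-06). Its other probes, both detected on all arrays, gave -0.39 and -0.45, so that the size of its fall depended on the probe. Trp53inp1, a stress-induced cofactor of p53, fell by 1.06 and Rrm2b, a subunit of ribonucleotide reductase, by 0.80.

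The 250 bases before the start site of Mki67 hold the cell cycle homology region TTTGAA at 116 and 98 bases and CCAAT boxes at 188, 166 and 141 bases before the start, all in capitals:
Mki67, chr7:135716380-135716629, - strand: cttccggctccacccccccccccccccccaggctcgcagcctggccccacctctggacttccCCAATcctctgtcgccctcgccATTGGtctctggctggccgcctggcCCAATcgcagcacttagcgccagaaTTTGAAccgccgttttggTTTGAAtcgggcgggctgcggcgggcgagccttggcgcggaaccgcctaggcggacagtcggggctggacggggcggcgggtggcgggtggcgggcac
Among the mitosis genes whose TTTGAA match, with 12 bases on either side, lay wholly within the 250 bases before the start, the 6 with the largest falls are shown, Kif11 being a member through replicate 1 alone. The match nearest the start is in capitals between the flanking bases:
Mki67, chr7:135716460-135716489, - strand: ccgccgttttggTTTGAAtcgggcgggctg
Prc1, chr7:80294434-80294463, + strand: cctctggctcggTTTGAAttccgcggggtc
Top2a, chr11:99024195-99024224, - strand: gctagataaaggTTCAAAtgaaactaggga
Ckap2, chr8:22185903-22185932, - strand: gctttgttcgatTTTGAAatttctcgccgg
Kif11, chr19:37376351-37376380, + strand: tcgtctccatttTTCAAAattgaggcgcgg
Cdc20, chr4:118437344-118437373, - strand: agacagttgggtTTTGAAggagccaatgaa
From 250 bases before to 50 after the start, TTTGAA, on either strand, stood in 14 of 17 promoters of the mitosis genes that fell (82.4%). It stood in 11 of 14 of the other mitosis genes among the members (78.6%), against 17.9% of all promoters of the table. These counts too take all members, and those that entered through replicate 1 alone, such as Kif11, had to differ. TTTGAA stood in 15.3% of the promoters of genes called lower, beside 11.4% of those of all genes detected on all 6 arrays. The second form of the region, TTCGAA, was held by 6.45% of promoters of the mitosis genes and 1.56% of all promoters, and CCAAT by 71% and 37.4%. Over the genes detected on all 6 arrays the shares were 2.2% and 37.2%.

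Most of the 62 genes called lower belong to none of these lists. The largest fall was that of Ogn, the matrix proteoglycan osteoglycin. It was among the most intense genes of the array, at 15.15, 14.85 and 15.01 in replicate 1 and at 13.03, 13.68 and 13.43 in replicate 2 (difference -1.62 ± 0.15 SE, adjusted p = 1.72e-06). Its other probes gave -1.08 and -1.41. Resf1, a factor that silences retroelements, was at 12.17, 11.62 and 11.98 against 10.50, 10.34 and 10.36 (-1.53 ± 0.12 SE, adjusted p = 4.72e-07). Ankrd12, a nuclear cofactor that binds coactivators of hormone receptors, was at 9.93, 9.54 and 10.15 against 8.17, 8.31 and 8.64 (-1.50 ± 0.12 SE, adjusted p = 6.46e-07). In the 3 genes the groups were separate in every treatment.

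Other falls of this size were those of Smim15 (-1.42), a small membrane protein, Gcc2 (-1.37), a golgin that tethers vesicles, Upf2 (-1.36), a factor of nonsense-mediated decay, Angptl1 (-1.29), an angiopoietin-like secreted protein, Ppp4r3b (-1.27), a subunit of protein phosphatase 4, and Cops2 (-1.27), a subunit of the COP9 signalosome. Further genes called lower, named here after their values were seen, were Tpr (-1.26), of the nuclear pore basket, Matr3 (-1.25), an RNA-binding protein of the nuclear matrix, Nipbl (-1.19), the loader of cohesin, Luc7l3 (-1.15) and Clk1 (-1.12), which act in splicing, Psip1 (-1.20), a reader of histone methylation, and the long noncoding RNA Meg3 (-1.08). Zinc finger genes named Zfp made up 6 of the 62 (9.68%) against 152 of the 7943 genes (1.91%), and none was called higher. Of these 152 genes, 48 fell and 17 rose, beside 16.5% and 15.9% of the 7943 genes, and their median was -0.02. Zfp943 (-1.32) and Zfp932 (-1.29) were the lowest, but further probes gave 0.34 for Zfp943, detected in replicate 2 alone, and -0.42 for Zfp932.

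Genes that fell were longer on the chromosome than genes that rose. The span of a gene from its first to its last base, introns included, was 30.8 kb in the median of the 62 genes called lower, 8.65 kb for the 24 called higher and 21.1 kb for all 7943 genes. The genes were split by span into 4 bins of equal size. In the bin of the shortest spans, up to 8.66 kb, 7.35% fell and 20.3% rose. In the bin of the longest, from 48.4 kb, 27.6% fell and 10.9% rose. The median difference declined over the bins from 0.11 through 0.08 and 0.02 to -0.06. Across the 7943 genes, which are not independent and share the same 6 arrays, Spearman's rho between span and difference was -0.221, and that between level and difference was -0.02. This property was examined after the values had been seen, and its part in the results for single genes was not tested.

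**Figure D4:**
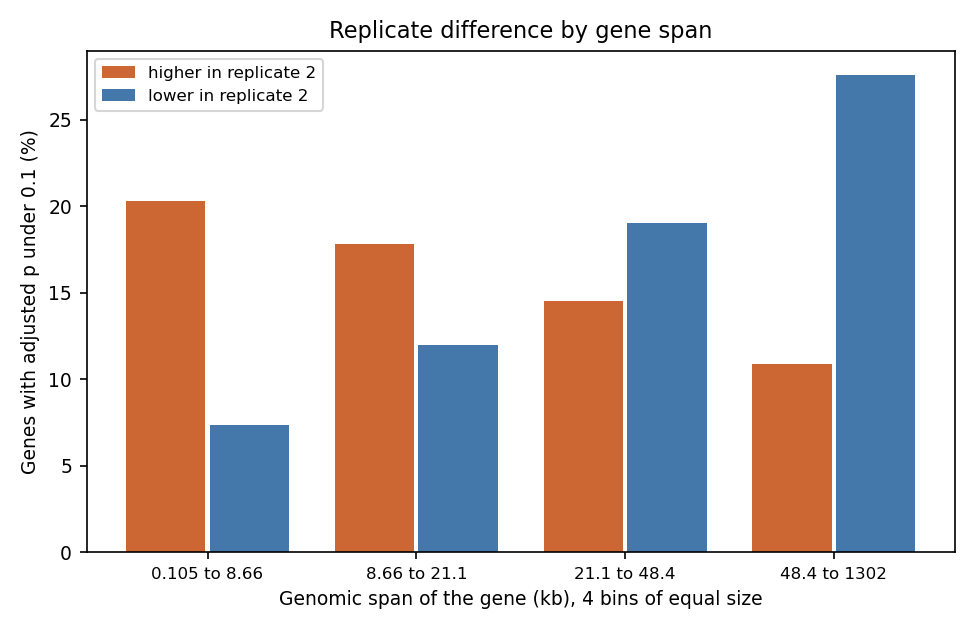
Share of genes with an adjusted p under 0.1 (%, y axis) that were higher (orange) or lower (blue) in replicate 2, in 4 equal bins of the 7943 genes detected on all 6 arrays by their genomic span (kb, x axis). The lower share goes from 7.35% to 27.6% and the higher share from 20.3% to 10.9%.

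Lists of stress and housekeeping genes showed smaller or mixed differences. Beside them, 15.9% of the 7943 genes rose and 16.5% fell. The 44 ribosomal protein genes gave none that rose or fell at an adjusted p under 0.1 (limma), and their values lay between -0.23 and 0.27, with a median of 0.01. In the ATF4 and unfolded protein response list, 9 of 27 genes rose and 5 fell, with a median of 0.20. Its enzymes of serine and folate metabolism (Phgdh 0.48, Shmt2 0.40, Mthfd2 0.60) rose, as did Chac1 (0.92), which degrades glutathione, while the chaperones Hsp90b1 (-1.03) and Dnajc3 (-0.60) fell. Heat shock genes rose in 4 of 19 cases and fell in 4, with a median of -0.04. Hsp90aa1, the inducible cytosolic HSP90, was at 10.19, 10.90 and 10.37 in replicate 1 and at 8.82, 9.99 and 9.42 in replicate 2 (difference -1.08 ± 0.12 SE, adjusted p = 1.44e-05).

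Immediate early genes rose in 9 of 21 cases and fell in 3, with a median of 0.17. Beside this and the following lists, 15.9% of the 7943 genes rose and 16.5% fell. Junb (0.64) of the AP-1 family and the phosphatase Dusp4 (0.69) were among those that rose, and Klf6 (-0.72) and Klf4 (-0.47) fell. Hypoxia and glycolysis genes rose in 6 of 23 cases and fell in 1 (median 0.10), with Ndrg1 at 0.86. Contractile genes rose in 3 of 25 cases and fell in 8 (median -0.02), with Cald1, caldesmon, at -0.76. Sterol synthesis genes rose in 3 of 17 cases and fell in 4 (median 0.09), and circadian clock genes rose in 2 of 14 and fell in 2 (median -0.02). Clock, the partner of BMAL1, was at -0.81, and Rora, a nuclear receptor of the clock, was not detected on any array of replicate 2 and was at least 1.37-fold lower there.

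Genes detected under 1 replicate number alone gave only bounds. In addition to those named, 1500009L16Rik was at least 1.54-fold and Sparcl1, a matricellular protein, at least 1.38-fold higher in replicate 2. Zfp948 was at least 1.50-fold, Cemip, which degrades hyaluronan, at least 1.41-fold and D4Ertd617e at least 1.35-fold lower. In all, 33 genes were detected on the 3 arrays of replicate 2 and on none of replicate 1, and 66 the other way round.

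The smallest differences between the replicate numbers were measured in presence of FGF2. Over the 7943 genes the SD of the difference was 0.42 in the -GFs pair, 0.305 in the FGF2 pair and 0.38 in the BMP4 pair. A difference over 1 in either direction was found in 236, 53 and 132 genes, respectively. In 71 of the 86 called genes the FGF2 pair had the smallest difference, in 55 of 62 that were lower and in 16 of 24 that were higher. The same count was not made over the 7943 genes. Their median absolute difference was smallest in the FGF2 pair as well (0.18, beside 0.25 in the -GFs and 0.23 in the BMP4 pair). The median of the genes called lower was -1.40 in -GFs medium, -0.91 with FGF2 and -1.23 with BMP4, and that of the genes called higher was 1.31, 1.07 and 1.30. Across genes, the differences of the pairs, which share no array but come from the same 2 biological replicates, correlated with r = 0.627 (-GFs with FGF2), 0.759 (-GFs with BMP4) and 0.599 (FGF2 with BMP4), given as a description. With 1 array per treatment and replicate number, the difference between the pairs was not tested.

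**Figure D5:**
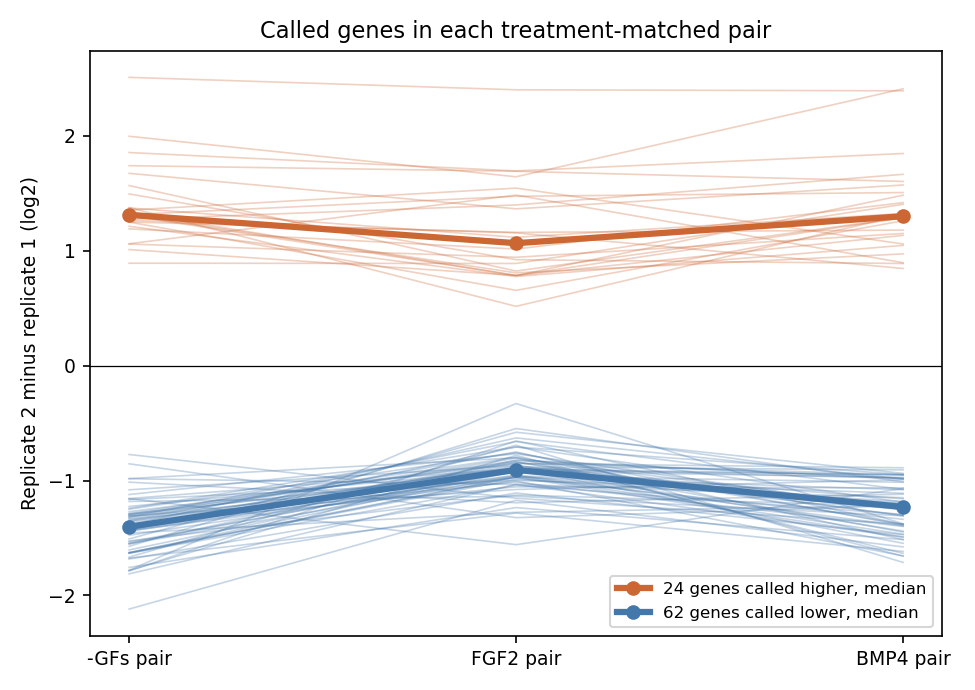
Difference of replicate 2 from replicate 1 (log2, y axis) in each treatment-matched pair (x axis) for the 86 called genes detected on all 6 arrays. Thin lines are genes and thick lines are medians, orange for the 24 called higher and blue for the 62 called lower, and both medians come closest to 0 in the FGF2 pair (1.07 and -0.91).

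The 3 genes whose difference varied most among the pairs were Hmox1, Fgf7 and Hfe. Hmox1, the heme oxygenase induced by oxidative stress, was at 9.34 (-GFs), 11.00 (FGF2) and 9.93 (BMP4) in replicate 1 and at 10.92, 9.91 and 10.30 in replicate 2. It was thus higher in replicate 2 without growth factors (1.57) and with BMP4 (0.37) and lower with FGF2 (-1.09), and over the pairs it did not pass (adjusted p = 0.496). Fgf7, the growth factor that stromal cells supply to epithelia, was at 11.84, 12.25 and 11.32 against 10.11, 12.16 and 10.53. Its 2 FGF2 arrays were nearly equal (-0.09), whereas the -GFs pair differed by -1.74. Hfe, the membrane protein mutated in hereditary iron overload, was at 8.77, 8.82 and 8.56 against 10.02, 8.64 and 9.73, again with no rise in the FGF2 pair (-0.18), although a further probe gave 0.56 there.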

How the data were processed

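Treatment and replicate number of each array were taken from the labels. The authors deposited intensities, the average bead signal of a probe, linear and not normalized between arrays, and with each a detection p-value, exported from GenomeStudio (version 2011.01, per the labels). A further 9 columns without a heading and 6 leftover lines were not used. Names of the array were merged by RefSeq symbol (GRCm38.p6): of 30854 names, 16125 matched a symbol, 5617 a synonym and 868 a gene identifier, 117 were ambiguous and 8127 unmatched. After cubic spline normalization (452 quantiles per array, re-implemented in R 4.3.3) and conversion to log2, the probe with the largest mean represented a gene; 3185 of 10553 genes had several probes. limma 3.58.1 (lmFit, eBayes) was fitted with treatment and replicate number (2 residual degrees of freedom), adjusting by Benjamini-Hochberg over the 10553 genes, and the procedure was tested on simulated data. "Rose" and "fell" stand for an adjusted p under 0.1 and "called" for a change over 1 (log2, either direction) as well. A bound sets the detected group against the lowest detected signal of each array.

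The genes named are the 15 largest rises and falls called with 1 sign in all pairs, the 5 largest bounds in each direction, members of the lists, and the 3 genes varying most among treatments. The members, lists and motifs were chosen with earlier results of these data known. Gene lists carry no test. Promoters were matched by symbol: 15 of 24 genes called higher and 49 of 62 called lower had one in the table. Alternatives tried were quantile normalization, neqc, median scaling, other detection filters, the mean of the detected probes, no treatment block, the trend and robust options, and leaving out each pair.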

Additional observations from a re-analysis of the deposited data

Results flagged for a closer look

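Hmox1 moved in opposite directions between the replicate numbers depending on the treatment. Replicate 2 was 1.57 higher than replicate 1 on the log2 scale in -GFs medium and -1.09 with FGF2, with 1 array on each side of either difference. The difference between the treatments was not tested.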

How the results depend on the processing

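No paired analysis was possible with the replicate number as a block because that number is what was compared; the arrays were matched by treatment instead. The counts of calls moved most with neqc, where 102 members were called higher and 230 lower (66 and 158 among genes detected on all 6 arrays, including all 86 called before). With median scaling alone, 97 were called lower (95 among genes detected on all 6 arrays, beside 18 higher) and 751 passed the adjusted p upward. Without the treatment block, 109 passed the adjusted p upward and 322 downward. Leaving out each pair in turn gave 31 to 41 called higher, 48 to 126 called lower, 694 to 1610 past the adjusted p upward and 908 to 1642 downward, and among genes detected on all 6 arrays 21 to 31 called higher and 47 to 123 called lower. The highest counts called lower, 126 and 123, were those without the FGF2 pair, and 85 of the 86 genes remained called there, 63 without the -GFs pair and 75 without the BMP4 pair. These fits have 1 residual degree of freedom and rest on a spread shared over genes. Over the named genes, 563 values kept their direction and side of the threshold, 20 no longer passed, 12 newly passed and 1 changed direction: Hmox1, not called before, was at -0.36 without the -GFs pair (adjusted p = 0.223) and at 0.97 without the FGF2 pair. Genes losing their call in more than 1 setting were Oas1g, Trp53inp1, G0s2, Hsp90aa1 and Serpina3g, and of the list medians those of sterol synthesis and heat shock genes changed sign. The cause of these changes was not tested. The 6 arrays limit the precision, and genes detected on no array of 1 replicate number have only bounds. For other genes near the lowest detected signal, the size of the difference moved with the setting. It ran from 1.61 to 2.75 for Mrap, from 1.59 to 3.17 for Cfd and from -2.39 to -1.26 for Mki67.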
